A study of Homo sapiens with 12 samples.

Results

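The genes described here are the 5 NF-kappaB subunit genes (NFKB1, NFKB2, REL, RELA and RELB), 3 classical inhibitor genes (NFKBIA, NFKBIB and NFKBIE), the IkappaB-like cofactor gene BCL3 and the kinase gene MAP3K14. They were chosen by gene symbol, and all 10 were present among the 26641 genes of the count table. They were counted in human NCCIT embryonal carcinoma cells in which a dCas9 fusion was directed to LTR5HS, the long terminal repeats of the youngest HERVK endogenous retroviruses. The question was how activation (CRISPRa) or repression (CRISPRi) of these repeats across the genome changed the expression of host genes. NFKB2 was picked by the study from these libraries for its opposite response to both treatments. Its recruitment values are therefore given as a description, without a test, and the other 9 members are counted without it.

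NF-kappaB proteins bind DNA as dimers. RELA, RELB and REL carry an activation domain, while NFKB1 and NFKB2 encode the precursors p105 and p100, which are processed to the DNA-binding subunits p50 and p52. In the classical pathway, IkappaB proteins such as those encoded by NFKBIA, NFKBIB and NFKBIE hold dimers in the cytoplasm until the IKK kinase complex marks them for degradation. In the alternative pathway, receptors such as the lymphotoxin beta receptor stabilize the kinase NIK, encoded by MAP3K14, and p100 is then processed to p52, which pairs mostly with RELB.

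Poly(A) RNA was sequenced from 6 stable NCCIT lines in 2 replicates each, and all 12 libraries were used. The lines carried doxycycline-inducible dCas9-VPR (an activating fusion) or dCas9-KRAB (a repressing fusion), and both the fusion and the guide array were inserted with PiggyBac transposons and kept by drug selection. Within each fusion, the LTR5HS Sp line carried guides to LTR5HS on the S. pyogenes scaffold that dCas9 binds (recruitment, n = 2), whereas the LTR5HS Sa line (the same target on the S. aureus scaffold) and the nontarget Sp line were pooled as control (n = 4). All lines, controls included, received doxycycline for 4 days. Each combination of fusion and array is represented by 1 line, so a difference between lines cannot be told apart from the effect of the construct it carries.

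The libraries held 13601701 to 69797411 counts, and dCas9-KRAB nontarget Sp replicate 2, the deepest, held 3.84 times the median of the others. Levels are given as CPM, a gene's count scaled to the TMM-adjusted size of its library, and 3 counts corresponded to 0.0455 to 0.233 CPM. All 10 pluripotency markers examined were detected in every library. Their summed level was 1280 to 1330 CPM in dCas9-VPR recruitment and 1170 to 1790 CPM in dCas9-VPR control, against 4890 to 5170 CPM in dCas9-KRAB recruitment and 5150 to 6410 CPM in dCas9-KRAB control. The summed level of 7 differentiation markers was 24.8 to 28.8 CPM in dCas9-VPR recruitment and 6.29 to 10.8 CPM in dCas9-VPR control, and it was between 2.02 and 4.21 CPM in all dCas9-KRAB libraries. In that list GATA4, GATA6, CDX2, PAX6 and EOMES had counts in every library, while SOX17 was at 0 in 1 library and the mesoderm gene T in 8. The lowest values of GATA4, GATA6 and EOMES, 0.0776, 0.155 and 0.149 CPM, lay within the range given above for 3 counts. The leukocyte marker PTPRC was at 0 in 10 of 12 libraries and CD3E at 0 in 8, and the summed level of the 6 immune markers was 6.85 to 9 CPM over all libraries. In bulk RNA, fewer cells expressing a gene and less RNA per cell cannot be told apart.

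Where the guides could bind near the members was read from GRCh38, the build of the deposited counts. The array holds 12 guides of 16 bases, which matched the genome exactly with an NGG PAM at 2938 places. Matches of at least 2 different guides formed 646 clusters. The cluster nearest to NFKB2 is shown because NFKB2 had the nearest cluster and the largest change of the 10 members. NFKB2 lies at chr10:102394110-102402524 on the plus strand, and the cluster lies at chr10:102391771-102392254, between the end of GBF1 and the first annotated base of NFKB2. It ends 1.86 kb before that base and 3.45 kb before the canonical transcription start. Only 0.3% of 23287 genes with a position had a cluster at least as near. From left to right on the chromosome the 6 sites are the following, each written 5′ to 3′ on its own strand with the PAM in capitals.
LTR5HS-7, minus strand: aaccttggacaataccTGG
LTR5HS-4, plus strand: agcccgacacccgtaaAGG
LTR5HS-8, plus strand: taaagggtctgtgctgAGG
LTR5HS-9, minus strand: gacattccattgcccaGGG
LTR5HS-2, plus strand: aaaaccgccttagggcTGG
LTR5HS-1, plus strand: tactaagggaactcagAGG

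Of these guides, LTR5HS-1, LTR5HS-4, LTR5HS-7 and LTR5HS-8 also matched in the cluster nearest to NFKBIE. NFKBIE lies at chr6:44258166-44265788 on the minus strand, and its cluster at chr6:44328199-44328684 was 62.65 kb upstream of its start, and 4.2% of genes had a cluster at least as near. BCL3 (chr19:44747705-44760044, plus strand) and RELB (chr19:45001461-45038192, plus strand) shared 1 cluster with matches of 6 guides at chr19:44594421-44594912. It was 153.8 kb from BCL3 and 406.55 kb from RELB. The nearest cluster was 268.19 kb from NFKBIB (chr19:38899700-38908893), 966.97 kb from MAP3K14 (chr17:45263119-45317029) and 1940.59 kb from RELA (chr11:65653599-65663090). It was 2713.68 kb from NFKBIA (chr14:35401079-35404749), 5601.71 kb from REL (chr2:60881491-60931612) and 5976.6 kb from NFKB1 (chr4:102501330-102617302). The members therefore ranged widely in distance, from NFKB2, among the nearest genes, to NFKB1, where 86.6% of genes had a cluster at least as near. Exact matches show where guides could pair and were not a measurement of binding.

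All 10 members were expressed in the 8 control libraries. Scaled for gene length as well (TPM, which allows levels of different genes to be compared), NFKBIB had the highest level at 92.4 ± 8.11 TPM (SD, n = 8). RELA followed at 57.2 ± 9.94 TPM and NFKB2 at 50.4 ± 14.1 TPM. The remaining levels were 27.7 TPM for NFKBIA, 16.3 for NFKBIE, 15.7 for NFKB1, 10.8 for MAP3K14, 10 for RELB, 8.85 for BCL3 and 7.92 for REL. NFKBIB was the only member whose lowest control library lay above the highest of the next member in this order. All other neighbours in the order overlapped over these 8 libraries, which pool both fusions. Within a fusion the order could differ. In dCas9-VPR control RELA was at 63.1 to 71.5 TPM and NFKB2 at 31.6 to 43.1 TPM. In dCas9-KRAB control RELA was at 44.5 to 52 TPM and NFKB2 at 55.4 to 70.2 TPM. Gene lengths were those of the count table, so a level depends on the gene model that was counted.

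Recruitment of dCas9-VPR was accompanied by much more NFKB2 RNA and more NFKBIE RNA, the transcripts of a p100 precursor and of IkappaB epsilon. RELB, which encodes the usual partner of p52, fell. With dCas9-KRAB, NFKB2 and NFKBIE lay below their controls, although NFKBIE missed the threshold there. The plot of CPM by library shows all 10 members.

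**Figure D1:**
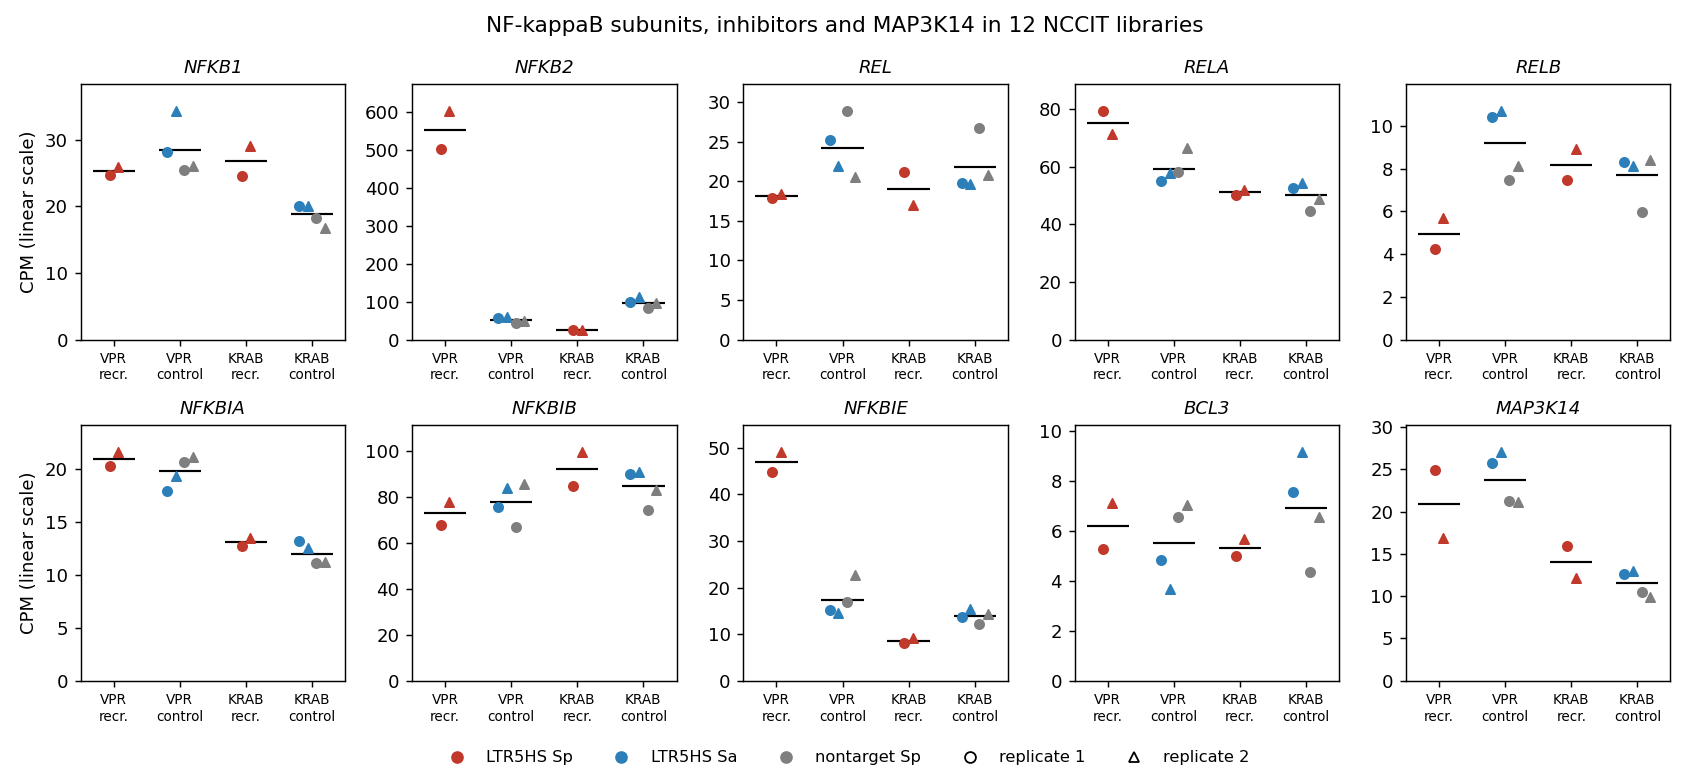
Level of each member in the 12 libraries (vertical axes: CPM, linear scale, starting at 0; a separate scale for each gene), by fusion and by recruitment or control. Points are libraries, colours mark the guide array, symbols the replicate, and bars the group mean; NFKB2 reaches 504 and 603 CPM with dCas9-VPR recruitment and 25.3 and 25.6 CPM with dCas9-KRAB recruitment.

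NFKB2 was at 504 and 603 CPM in the 2 dCas9-VPR recruitment libraries. In the dCas9-VPR controls it was at 55.9 and 58.5 CPM with LTR5HS Sa and at 42.6 and 50.1 CPM with nontarget Sp. Both recruitment libraries were thus far above all 4 controls, and the controls of both arrays lay between 42.6 and 58.5 CPM. The group means were 554 ± 70 CPM (SD, n = 2) and 51.8 ± 7.06 CPM (SD, n = 4), a 10.7-fold difference with a log2 fold change of 3.42 ± 0.15 (SE).

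In the dCas9-KRAB lines NFKB2 was at 25.3 and 25.6 CPM with recruitment. In the controls it was at 98.3 and 112 CPM with LTR5HS Sa and at 83.4 and 96.3 CPM with nontarget Sp. Recruitment was below every control here, and its replicates nearly coincided. The means were 25.4 ± 0.231 CPM (SD, n = 2) and 97.6 ± 11.9 CPM (SD, n = 4), a log2 fold change of −1.94 ± 0.15 (SE). The controls of both fusions did not have the same starting level, so each change is relative to its own fusion.

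NFKBIE, which encodes the inhibitor IkappaB epsilon, moved the same way as NFKB2 with smaller changes. With dCas9-VPR it was at 44.8 and 49 CPM with recruitment, 15.1 and 14.5 CPM with LTR5HS Sa, and 17 and 22.7 CPM with nontarget Sp. Every recruitment library exceeded every control, and NFKBIE rose 2.71-fold, with a log2 fold change of 1.44 ± 0.18 (SE, adjusted p = 0.000723, quasi-likelihood test of edgeR, Benjamini-Hochberg adjustment over all genes tested). With dCas9-KRAB it was at 8.01 and 9.07 CPM with recruitment, 13.6 and 15.4 CPM with LTR5HS Sa, and 12.2 and 14.3 CPM with nontarget Sp. Recruitment again did not overlap control, but the log2 fold change of −0.70 ± 0.17 (SE) missed the threshold of 0.05 with edgeR (adjusted p = 0.0706). It passed when the replicate number was added as a block (adjusted p = 0.047, edgeR) and without nontarget Sp replicate 1 (0.0474), and adjusted p ranged from 0.00937 to 0.303 over all alternatives.

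RELB encodes the subunit that pairs mostly with p52. With dCas9-VPR it was at 4.23 and 5.67 CPM with recruitment, 10.4 and 10.7 CPM with LTR5HS Sa, and 7.48 and 8.15 CPM with nontarget Sp. The groups did not overlap, and RELB fell by 0.89 ± 0.24 on the log2 scale (SE, adjusted p = 0.0257, edgeR). This call rested on few libraries. Adjusted p was 0.196 without the first recruitment replicate, 0.0615 without the second, 0.0605 without LTR5HS Sa replicate 1 and 0.0747 against nontarget Sp alone (edgeR). With dCas9-KRAB, RELB was at 7.45 and 8.94 CPM with recruitment and at 5.99 to 8.43 CPM in control, where the groups overlapped and the log2 fold change was 0.09 ± 0.2 (SE, adjusted p = 0.892, edgeR).

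RELA encodes the main activating subunit of the classical pathway. With dCas9-VPR it was at 79.4 and 71.4 CPM with recruitment, 55.1 and 57.9 CPM with LTR5HS Sa, and 58.2 and 66.4 CPM with nontarget Sp. The groups did not overlap, and the log2 fold change of 0.35 ± 0.11 (SE) was just outside the threshold (adjusted p = 0.0508, edgeR). With the replicate block it was inside (adjusted p = 0.047, edgeR), as it was without nontarget Sp replicate 2 (0.0323), and adjusted p ranged from 0.0156 to 0.309 over all alternatives. With dCas9-KRAB, RELA was at 50.3 and 52 CPM with recruitment and at 44.5 to 54.3 CPM in control. These groups overlapped, and the 95% interval of the log2 fold change ran from −0.24 to 0.3.

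REL, the gene of c-Rel, was at 17.9 and 18.4 CPM with dCas9-VPR recruitment and at 20.6 to 28.9 CPM in dCas9-VPR control. Recruitment was below all controls, but the log2 fold change of −0.41 ± 0.16 (SE) was not past the threshold (adjusted p = 0.0992, edgeR). With dCas9-KRAB, REL was at 21.2 and 17 CPM with recruitment, within or below a control range of 19.7 to 26.8 CPM.

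NFKB1, the gene of p105 and p50, was at 24.7 and 25.9 CPM with dCas9-VPR recruitment and overlapped its controls at 25.4 to 34.3 CPM. With dCas9-KRAB it was at 24.6 and 29 CPM with recruitment, 20.1 and 20.1 CPM with LTR5HS Sa, and 18.2 and 16.8 CPM with nontarget Sp. Both recruitment libraries were above all 4 controls, the opposite side from NFKB2. The log2 fold change of 0.52 ± 0.14 (SE) did not pass with edgeR (adjusted p = 0.11) and passed with DESeq2 (adjusted p = 0.0303).

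The other inhibitor genes and the kinase gene stayed within overlapping ranges in both comparisons. NFKBIA, the gene of IkappaB alpha and a well-known transcriptional target of NF-kappaB, had log2 fold changes of 0.08 ± 0.13 (SE) with dCas9-VPR and 0.13 ± 0.16 with dCas9-KRAB. For NFKBIB, the gene of IkappaB beta, they were −0.10 ± 0.14 and 0.13 ± 0.12. BCL3, whose product binds p50 and p52 dimers in the nucleus, gave 0.17 ± 0.29 and −0.36 ± 0.28. MAP3K14 gave −0.18 ± 0.19 and 0.29 ± 0.18. None of these passed the threshold with edgeR. The 95% intervals were widest for BCL3, from −0.49 to 0.83 with dCas9-VPR and from −0.99 to 0.27 with dCas9-KRAB, so its groups were not resolved to better than those limits. MAP3K14 overlaps the antisense gene MAP3K14-AS1 on the opposite strand by 6706 bp, only 86 of them exonic in both canonical transcripts. Without a stated strand setting, reads in this shared stretch cannot be told apart.

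With dCas9-VPR, 2 of the 9 members other than NFKB2 passed the threshold (NFKBIE higher, RELB lower), as did 28.0% of the 16271 genes tested (15.7% higher and 12.3% lower), so the share among the members was near the background. Their median log2 fold change was −0.10, against −0.02 over all genes. Recruitment and control did not overlap for 4 of these 9 with dCas9-VPR (NFKBIE and RELA above, REL and RELB below), where 49.9% of all genes tested did not overlap. With dCas9-KRAB, 0 of the 9 passed with edgeR, against 2.77% of 15520 genes (0.831% higher and 1.94% lower). At an unadjusted p under 0.05 there were 2 of the 9 (22.2%), against 13.6% of all genes. DESeq2 called NFKBIE and NFKB1, and edgeR with the replicate block called NFKBIE. The groups did not overlap for 2 of the 9 (NFKBIE below, NFKB1 above), against 23.3% of all genes. Cell type markers changed with dCas9-VPR recruitment as well. Of 5 differentiation markers tested, GATA6, CDX2 and EOMES rose, while PAX6 was at 1.04 CPM on average against 1.97 CPM in control and GATA4 at 6.52 against 3.58 CPM, neither past the threshold. Of 10 pluripotency markers, SOX2 fell from 360 to 153 CPM and DNMT3B from 233 to 151 CPM, whereas L1TD1 rose from 79.6 to 244 CPM (means; edgeR). The part of these markers in the members' changes was not tested.

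**Figure D2:**
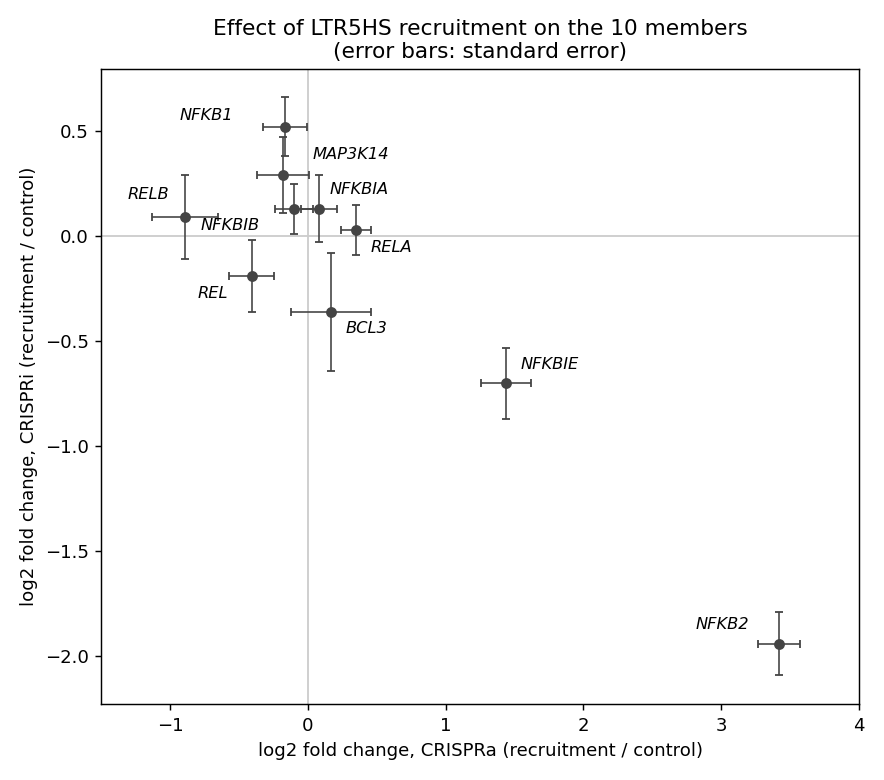
Log2 fold change of recruitment over control for the 10 members with dCas9-VPR (CRISPRa, horizontal axis) and with dCas9-KRAB (CRISPRi, vertical axis), with standard errors as bars. NFKB2 (3.42 and −1.94) and NFKBIE (1.44 and −0.70) lie in the lower right, higher with CRISPRa and lower with CRISPRi, and the other 8 lie within 1 log2 unit of 0 on both axes.

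To see which members responded differently to the fusions, the difference between the log2 fold changes was tested in 1 fit of all 12 libraries. It passed for 3 of the 9 members other than NFKB2, against 21.0% of 16673 genes. For NFKBIE the difference was 2.14 ± 0.26 (SE, adjusted p = 5.58e-05, edgeR). For RELB it was −0.98 ± 0.3 (adjusted p = 0.0369, edgeR) and for NFKB1 −0.69 ± 0.21 (adjusted p = 0.0314, edgeR). RELB and NFKB1 thus had the more negative response with dCas9-VPR, opposite to NFKBIE. Both of these calls depended on single libraries, and that of RELB also on the expression filter, without which adjusted p was 0.0511 (edgeR). That of RELB was lost without dCas9-VPR LTR5HS Sp replicate 1, either dCas9-VPR LTR5HS Sa library, either dCas9-KRAB LTR5HS Sp library or dCas9-KRAB nontarget Sp replicate 1 (adjusted p = 0.0508 to 0.178, edgeR). That of NFKB1 was lost without either dCas9-VPR LTR5HS Sp library, dCas9-KRAB LTR5HS Sp replicate 2 or either dCas9-KRAB nontarget Sp library (adjusted p = 0.0502 to 0.141, edgeR). For NFKB2 the difference was 5.36 ± 0.22 (SE). For RELA, REL, NFKBIA, NFKBIB, MAP3K14 and BCL3 it did not pass.

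Because subunits act in pairs, their relative RNA levels were compared within each library as a share of the summed TPM of the 5 subunit genes. NFKB2 made up 76 to 80% of this sum with dCas9-VPR recruitment and 23.5 to 28.5% in dCas9-VPR control. It made up 16.5 to 17.1% with dCas9-KRAB recruitment and 43.6 to 47.4% in dCas9-KRAB control. The most abundant subunit transcript therefore changed: it was NFKB2 with dCas9-VPR recruitment and in dCas9-KRAB control, and RELA in dCas9-VPR control and with dCas9-KRAB recruitment.

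The share of RELA was 14.3 to 18% with dCas9-VPR recruitment and 42 to 50.3% in its control, and 50.5 to 51.3% with dCas9-KRAB recruitment and 34.5 to 35.9% in its control. RELB was 1.09 to 1.28% of the sum with dCas9-VPR recruitment and 6.99 to 9.09% in dCas9-VPR control. Shares within a library add up to the whole, so a higher share of 1 subunit lowers the shares of the others. The TPM ratio of NFKB2 to NFKB1, the precursor genes, was 21.5 and 24.5 with dCas9-VPR recruitment and 1.77 to 2.09 in dCas9-VPR control. It was 1.08 and 0.926 with dCas9-KRAB recruitment and 4.82 to 6.04 in dCas9-KRAB control. The ratio of NFKB2 to RELB was 69.8 and 62.3 with dCas9-VPR recruitment and 3.14 to 3.6 in dCas9-VPR control. RNA levels do not give the amounts of p100 and p52, which were not measured here.

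**Figure D3:**
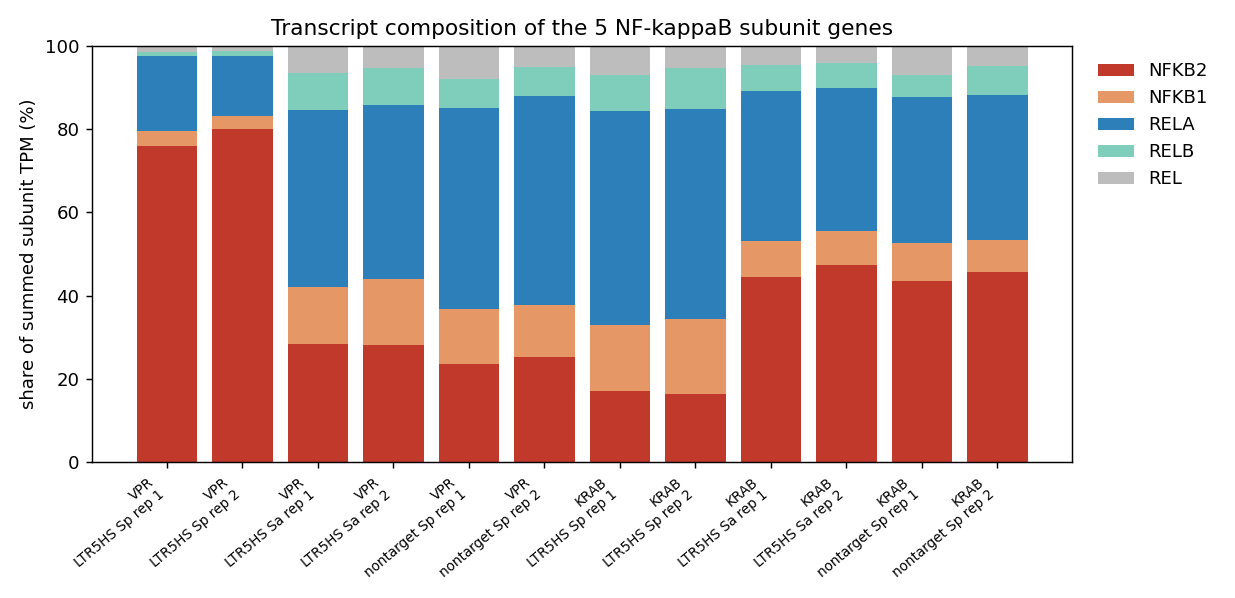
Share of each subunit gene in the summed TPM of the 5 subunit genes (vertical axis, %), 1 bar per library. NFKB2 fills 76 to 80% of the bars with dCas9-VPR recruitment and 16.5 to 17.1% with dCas9-KRAB recruitment.

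The controls themselves differed between the fusions. MAP3K14 was 2.08-fold higher in dCas9-VPR than in dCas9-KRAB control lines (log2 fold change 1.06 ± 0.16 SE, adjusted p = 0.000112, edgeR). NFKBIA was 1.65-fold higher (adjusted p = 0.000109, edgeR), NFKB1 1.52-fold (adjusted p = 0.000936, edgeR) and RELA 1.19-fold (adjusted p = 0.0342, edgeR). The RELA call was lost without dCas9-VPR nontarget Sp replicate 2 or either dCas9-KRAB nontarget Sp library (adjusted p = 0.0828 to 0.109, edgeR), and without the expression filter (0.0624). NFKB2 was lower, with a log2 fold change of −0.91 ± 0.12 (SE). It is given without a test, because the choice of NFKB2 used these control libraries. Its 4 dCas9-VPR control libraries at 42.6 to 58.5 CPM all lay below the 4 dCas9-KRAB ones at 83.4 to 112 CPM. Of the 9 members other than NFKB2, 4 passed, as did 55.4% of 16673 genes. All 10 pluripotency markers were lower in the dCas9-VPR controls (median log2 fold change −2.29), and their part in the members' differences was not tested. Fusion and line cannot be told apart here.

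Between the control arrays, 0 members passed with edgeR or DESeq2 in either fusion, against 4.51% of genes with dCas9-VPR and 0.567% with dCas9-KRAB. At an unadjusted p under 0.05 there were 4 of the 10 members with dCas9-VPR (40%), against 18.8% of all genes. With dCas9-KRAB there was 1 (10%), against 9.91%. With the replicate block, NFKB2 was higher in dCas9-VPR LTR5HS Sa than in nontarget Sp by 0.33 on the log2 scale (adjusted p = 0.0258, edgeR), and BCL3 had a log2 fold change of −0.64 (adjusted p = 0.0394, edgeR). The LTR5HS Sa difference in NFKB2 was small beside the recruitment difference, and the means of the 2 control lines were 57.2 ± 1.88 CPM and 46.4 ± 5.29 CPM (SD, n = 2 each).

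Several NF-kappaB subunit and inhibitor genes are known to be transcribed under NF-kappaB control in many cell types, so the members' promoters were searched for the kappaB decamer, the consensus binding sequence of the family, on both strands. RefSeq windows on GRCh38.p14, from 250 bases before to 50 after a transcription start, were found for 8 members, with several starts for some, giving 13 windows. The decamer was present in 7 windows of 6 members (NFKB1, NFKB2, REL, NFKBIA, NFKBIB and BCL3) and in 5.9% of 35116 promoters of that length. Windows of RELA and MAP3K14 did not contain it, and RELB and NFKBIE were not in the table. NFKB2 had 3 windows and is shown because it was the member with the largest change. Its window at the canonical start, chr10:102395455-102395754 on the plus strand, held 2 matches, in capitals, beginning 176 and 21 bases before the start.
NFKB2, canonical start: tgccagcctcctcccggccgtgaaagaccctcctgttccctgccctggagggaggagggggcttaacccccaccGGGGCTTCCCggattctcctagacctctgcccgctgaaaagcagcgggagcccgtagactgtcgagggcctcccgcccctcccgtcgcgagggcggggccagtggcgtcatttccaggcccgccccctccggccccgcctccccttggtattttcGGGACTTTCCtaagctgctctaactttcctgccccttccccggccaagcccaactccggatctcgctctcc
A second NFKB2 window, chr10:102394328-102394627, held matches beginning 107, 106 and 78 bases before its start, the first pair overlapping.
NFKB2, upstream start: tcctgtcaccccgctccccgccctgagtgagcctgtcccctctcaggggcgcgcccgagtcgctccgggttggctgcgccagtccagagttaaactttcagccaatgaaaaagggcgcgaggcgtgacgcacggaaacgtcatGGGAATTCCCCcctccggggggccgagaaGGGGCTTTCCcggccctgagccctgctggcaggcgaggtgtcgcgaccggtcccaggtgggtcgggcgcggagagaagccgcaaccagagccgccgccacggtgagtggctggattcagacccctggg

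A match to the decamer describes the sequence and was not a measurement of binding. RELB and NFKBIE, which passed the threshold with dCas9-VPR, had no window and could not be searched. NFKBIA, with a match beginning 81 bases before its start, had a dCas9-VPR log2 fold change whose 95% interval ran from −0.22 to 0.39.

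Genes around NFKB2 were examined to see whether the change at this locus was limited to NFKB2. Of 11 counted genes that start within 200 kb of it, 10 were tested, and MIR146B had 0 counts in every library. With dCas9-VPR recruitment 8 of the 10 rose and none fell, where 15.7% of all genes rose. The largest difference was that of PSD, which encodes a guanine nucleotide exchange factor. It was at 37.2 and 42.2 CPM with recruitment and at 1.44 to 3.62 CPM in control, with no overlap, a log2 fold change of 4.02 ± 0.33 (SE, adjusted p = 7.5e-05, edgeR). PSD lies tail to tail with NFKB2, 92 bp apart on the opposite strand, so transcription running past the end of NFKB2 would count toward PSD if strand was not used in counting.

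PITX3, a homeobox gene of lens and dopamine neuron development, rose with a log2 fold change of 2.53 ± 0.57 (SE, adjusted p = 0.0123, edgeR). It was at 4.12 and 4.06 CPM with recruitment, at 0.223 and 0.248 CPM with LTR5HS Sa (5 counts each) and at 1.29 and 1.1 CPM with nontarget Sp. Its control arrays differed, so that the log2 fold change was 4.08 against LTR5HS Sa alone and 1.77 against nontarget Sp alone, and adjusted p was 0.0654 and 0.0662 without either recruitment library (edgeR). C10orf95 (1.66 ± 0.27), MFSD13A (1.38 ± 0.2) and the F-box gene FBXL15 (1.25 ± 0.17) also rose. Smaller log2 fold changes of 0.35 to 0.47 passed for GBF1, ACTR1A and SUFU, a negative regulator of Hedgehog signalling. Those of ELOVL3 (0.63 ± 0.28) and CUEDC2 (0.06 ± 0.12) did not. When the first or the second recruitment library was left out, 4 of 10 passed instead of 8, and those of GBF1 and SUFU were also lost without LTR5HS Sa replicate 1, that of SUFU without nontarget Sp replicate 2 as well. Against nontarget Sp alone the calls of GBF1 and ACTR1A were lost.

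With dCas9-KRAB recruitment 3 of the 10 genes near NFKB2 fell and none rose, where 1.94% of all genes fell. Log2 fold changes were −3.11 ± 0.45 for C10orf95, −1.78 ± 0.28 for MFSD13A and −1.33 ± 0.24 for PSD (SE; adjusted p = 0.00393, 0.00665 and 0.0158, edgeR). C10orf95 had only 3 and 7 counts in the recruitment libraries and 46 to 170 in the controls, and leaving out either recruitment library gave −2.51 or −3.98. Without dCas9-KRAB LTR5HS Sp replicate 1, C10orf95 alone passed, and the PSD call was also lost without LTR5HS Sp replicate 2 or nontarget Sp replicate 2, and with all 12 libraries in 1 fit (adjusted p = 0.058, edgeR). These 3 genes start 27.4 to 67.3 kb downstream of the NFKB2 start. ACTR1A and SUFU, 108.6 and 109.9 kb downstream, had log2 fold changes of 0.07 ± 0.12 and −0.05 ± 0.14. CUEDC2, at 38.5 kb and between genes that passed in both comparisons, had −0.13 ± 0.15. FBXL15 and PSD overlap by 2351 bp, and ACTR1A and MFSD13A by 15165 bp, on opposite strands. A second guide cluster also lay within 200 kb of the NFKB2 start, so these libraries cannot assign a change to 1 of these clusters. In separate clones, the study reported lower NFKB2 expression after the nearest LTR5HS was deleted.

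**Figure D4:**
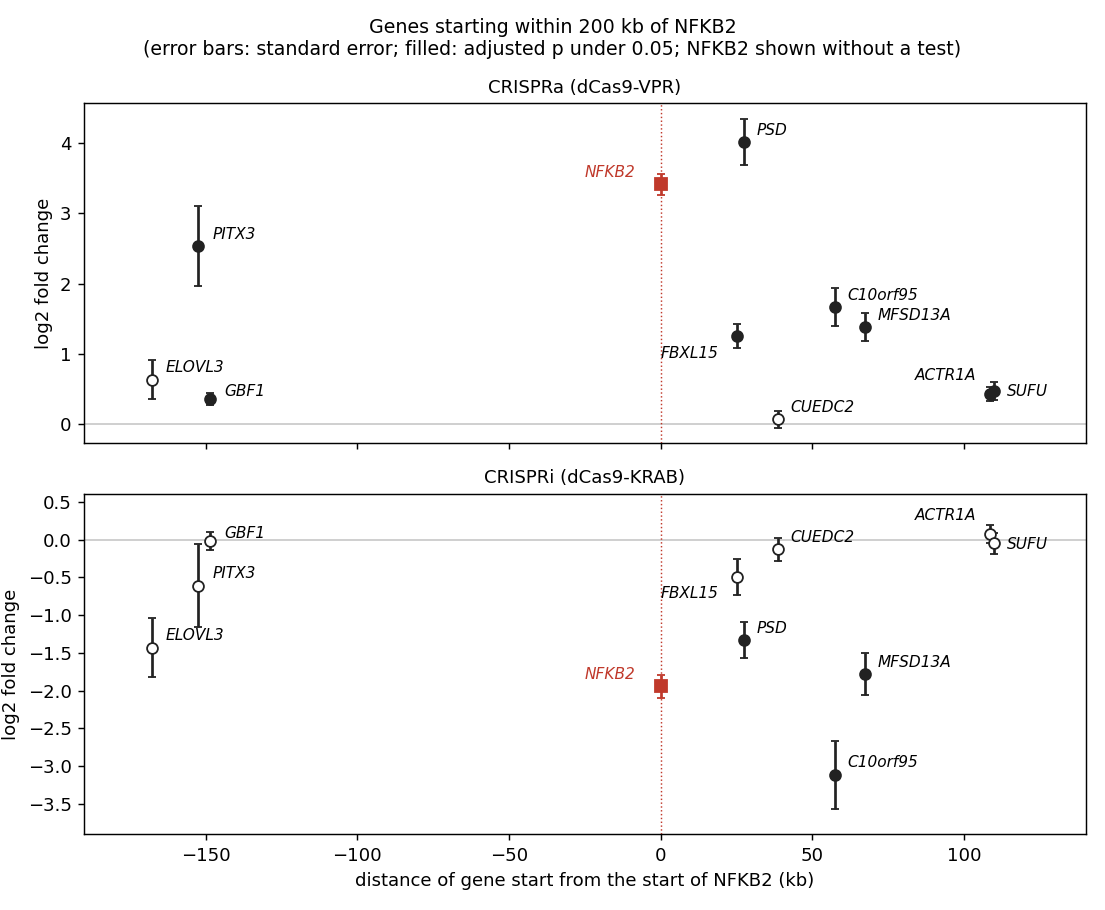
Log2 fold change of recruitment over control (vertical axes, bars: standard error) for genes that start within 200 kb of NFKB2, by the distance of their start from that of NFKB2 (horizontal axis, kb). Filled circles passed the threshold and the square is NFKB2, drawn without a test; PSD reaches 4.02 with CRISPRa and C10orf95 −3.11 with CRISPRi.

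The rest of the pathway was followed in 6 lists holding 76 genes: receptors, ligands, kinases and adaptors, ubiquitin machinery, other inhibitors and feedback genes, and target genes. With dCas9-VPR, 11 of the 55 genes tested passed (20%), 7 higher and 4 lower, against 28.0% of all genes. The median log2 fold change was −0.03. The strongest was TNFAIP3, the gene of the feedback inhibitor A20, at 37.4 and 45.6 CPM with recruitment against 4.8 to 6.74 CPM in control (log2 fold change 2.80 ± 0.17 SE, adjusted p = 1.67e-05, edgeR). With dCas9-KRAB it was at 4.94 and 5.94 CPM against 5.35 to 6.81 CPM, overlapping its controls. A guide cluster lay 22.06 kb from TNFAIP3, and 1.68% of genes had one at least as near. The distance was 18.17 kb for TLR3 and 3725.03 kb for TLR4, which also rose. It was 104.24 kb for TRAF5 and 4751.86 kb for TNFRSF11A, which fell. CYLD, the gene of another deubiquitinase that restrains the pathway, rose by 0.41 ± 0.11 (SE, adjusted p = 0.0276, edgeR), and the other 8 genes of the inhibitor and feedback list did not pass. The CYLD call was lost against nontarget Sp alone, and without either recruitment library, either LTR5HS Sa library or nontarget Sp replicate 2 (adjusted p = 0.0564 to 0.171, edgeR).

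Among receptors, 3 of 12 tested rose and 2 fell with dCas9-VPR (41.7% passed, against 28.0% of all genes). LTBR, the lymphotoxin beta receptor upstream of MAP3K14 and NFKB2, was at 13.7 and 14.3 CPM with dCas9-VPR recruitment and at 1.44 to 4.36 CPM in control. The groups did not overlap (log2 fold change 2.49 ± 0.38 SE, adjusted p = 0.00194, edgeR), and the log2 fold change was 3.18 against LTR5HS Sa alone and 2.00 against nontarget Sp alone. With dCas9-KRAB it was at 2.1 and 2.3 CPM with recruitment and 0.31 to 1.23 CPM in control, on the same side (1.26 ± 0.41, adjusted p = 0.19, edgeR), and it passed against LTR5HS Sa alone (2.08, adjusted p = 0.0214, edgeR). TLR3, a sensor of double-stranded RNA, rose by 2.55 ± 0.23 (adjusted p = 0.000124, edgeR) and TLR4 by 2.71 ± 0.44 (adjusted p = 0.00254, edgeR). TLR4 was low, with 38 and 25 counts in the recruitment libraries and 2 to 9 in the controls. TNFRSF11A, the receptor RANK, fell by 1.37 ± 0.24 and the interleukin 1 receptor subunit IL1RAP by 0.87 ± 0.22 on the log2 scale (SE; adjusted p = 0.00357 and 0.0182, edgeR). The IL1RAP call was lost without either recruitment library.

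Of 18 kinase and adaptor genes tested, 2 rose and 2 fell with dCas9-VPR (22.2% passed, against 28.0% of all genes). The adaptor TRADD rose by 0.89 ± 0.15 and the kinase IKBKE by 0.87 ± 0.15, whereas TAB1 and TRAF5 fell by 0.53 ± 0.14 and 0.50 ± 0.14 (log2, SE). The TAB1 call was lost without the first recruitment library, LTR5HS Sa replicate 1 or nontarget Sp replicate 2, and the TRAF5 call without either recruitment library or either LTR5HS Sa library and with all 12 libraries in 1 fit. Both were lost against nontarget Sp alone. None of the 9 ubiquitin machinery genes passed with edgeR, although 2 (22.2%) were at an unadjusted p under 0.05, against 39.4% of all genes. Of the ligands only 2 of 10 were expressed highly enough to be tested and neither passed. Of 15 classical target genes such as ICAM1, VCAM1 and SOD2, 4 were tested and 0 passed with edgeR, with log2 fold changes of −0.55 ± 0.25, 1.08 ± 0.46 and 0.25 ± 0.09 for these 3, and 2 were at an unadjusted p under 0.05. With dCas9-VPR each of these 3 passed under 1 alternative. These were ICAM1 with the replicate block (adjusted p = 0.0409, edgeR), VCAM1 against nontarget Sp alone (0.034) and SOD2 with all 12 libraries in 1 fit (0.0349). VCAM1 was low, with 26 counts in total with dCas9-VPR recruitment and 27 in dCas9-VPR control. With dCas9-KRAB 0 of the 56 pathway genes tested passed with edgeR, against 2.77% of all genes. At an unadjusted p under 0.05 there were 13 (23.2%), against 13.6% of all genes. DESeq2 called 4 pathway genes, and 716 genes in all. SOD2 with dCas9-KRAB passed with DESeq2 (log2 fold change −0.35, adjusted p = 0.0236, Wald test) and with all 12 libraries in 1 fit (0.0371, edgeR).

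**Figure D5:**
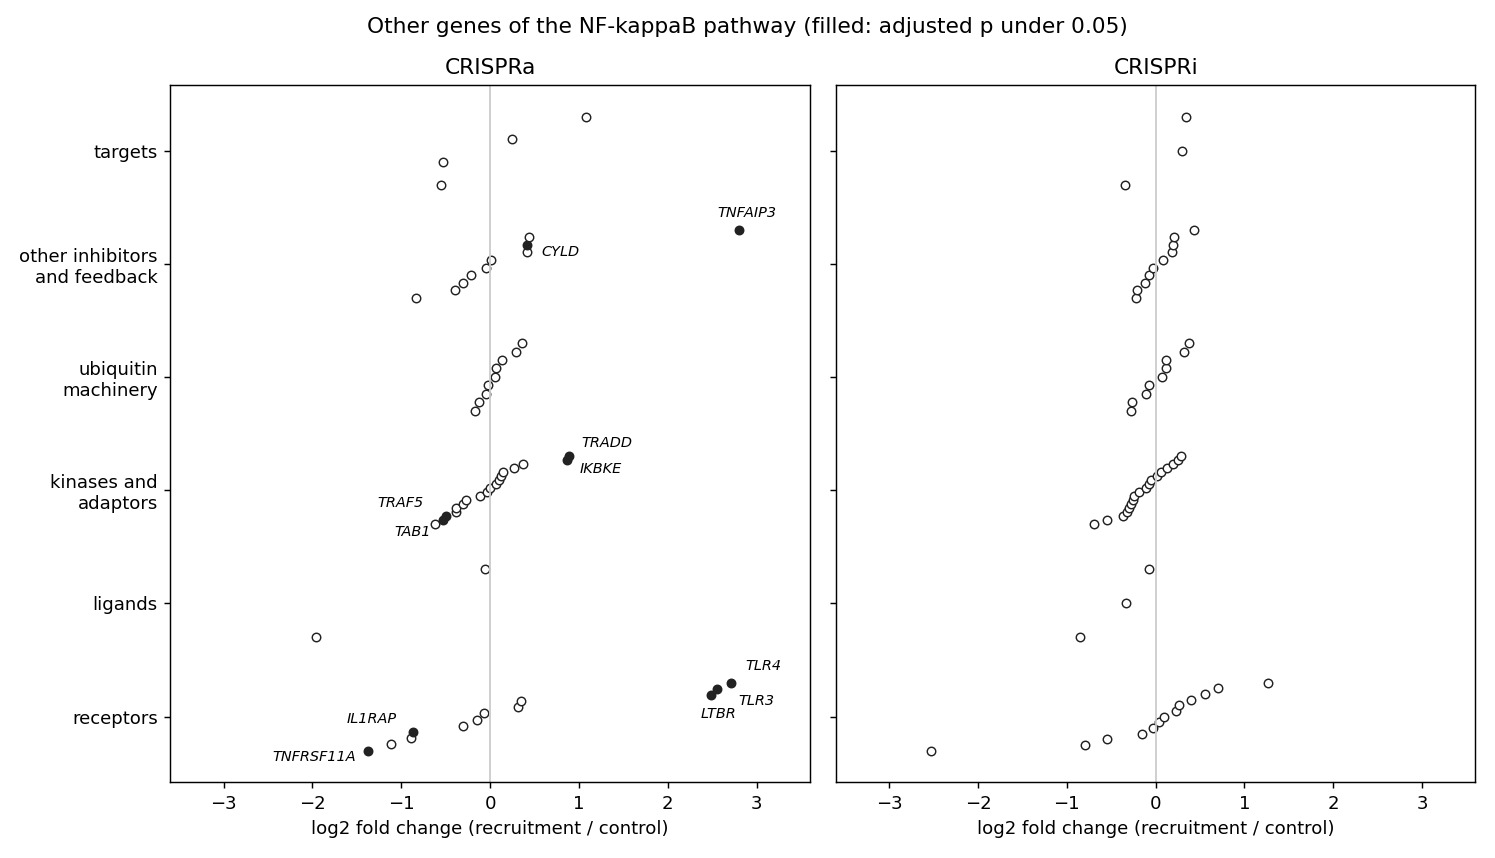
Log2 fold change of recruitment over control (horizontal axes) for the tested genes of 6 pathway lists (rows), with CRISPRa on the left and CRISPRi on the right; each circle is a gene, and within a row genes are spread by rank. Filled circles passed the threshold, 11 with CRISPRa and 0 with CRISPRi.

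The genes whose levels followed NFKB2 most closely over the 12 libraries were ZNF577 (Pearson's r of log2 CPM 0.992), ITLN2 (0.990), C1orf233 (0.988), SMIM24 (0.988) and FA2H (0.987), out of 15144 genes. Among the members NFKBIE was the most similar (r = 0.879, rank 298), followed by RELA (0.638), while RELB was the least (−0.696). These are descriptions over 12 libraries that share the recruitment groups. ZNF577, a zinc finger gene, was at 29.6 and 32.3 CPM with dCas9-VPR recruitment, 3.35 to 4.42 CPM in its control, 1.49 and 1.62 CPM with dCas9-KRAB recruitment and 5.82 to 6.71 CPM in its control. FA2H, which encodes a fatty acid hydroxylase, was at 234 and 277, 7.38 to 11.2, 1.83 and 2.18, and 23.6 to 37.9 CPM in the same order of groups. For both genes the dCas9-KRAB controls lay above the dCas9-VPR controls, as they did for NFKB2. Both were picked by their correlation with NFKB2 over these same libraries, so this adds nothing to that choice. Guide clusters lay 5.34 kb from ITLN2, 18.15 kb from ZNF577 and 24.72 kb from FA2H, but 3093.04 kb from SMIM24.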

How the data were processed

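RNA was sequenced from 6 NCCIT lines in 2 biological replicates, and the labels give the fusion, array and replicate number of each library. According to the submitters' processing notes and the study's methods, the authors trimmed reads with cutadapt 1.8.1, aligned them with HISAT2 2.1.0 to hg38 and counted them with featureCounts 1.4.6-p2, and CASAVA 1.8 is also listed. The annotation and strand setting are not given in the sources used here. The authors deposited raw counts per gene, without normalization, and a gene length in bp, used here only for TPM.

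Differential expression was computed in R 4.3.3 with edgeR 4.0.16 (filterByExpr, TMM, quasi-likelihood F-test, Benjamini-Hochberg adjustment over all genes tested, threshold 0.05), within each fusion for recruitment and for the control arrays, and in 1 fit of all 12 libraries for differences between fusions. Fold changes, SE and 95% intervals come from these fits; CPM and TPM are linear, and log2 CPM used a prior count of 0.5. A floor of 3 counts covers counting error only. Alternatives were DESeq2 1.42.0 (Wald test, and its size factors in edgeR), no expression filter, a minimum of 10 counts in each library, each control array alone, all libraries in 1 fit, a threshold of 0.01, the replicate block and leaving out each library. Replicate differences of the 3 lines of a fusion correlated across genes (r = 0.294 to 0.405 with dCas9-VPR, 0.202 to 0.486 with dCas9-KRAB), so equal numbers were taken as pairs within a fusion. The reported fits did not use this pairing, which entered only through the replicate block. Between fusions these correlations ran from 0.0563 to 0.477 and 7 of 9 were over 0.1; since not every one was, equal numbers were not taken as pairs there.

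The members and gene lists were chosen with earlier results of these data known. Named genes were all members, per fusion up to 6 pathway genes in each direction with the largest log2 fold change past the threshold, genes starting within 200 kb of NFKB2 past the threshold, and the 5 genes most correlated with NFKB2. CYLD, ICAM1, VCAM1, SOD2, ELOVL3, CUEDC2 and the cell type markers with values were named after their values were seen. Guides were read from the study's list and matched exactly to GRCh38 next to an NGG PAM. Matches less than 1500 bp apart formed a cluster, kept if it held at least 2 different guides. Gene positions were those of GENCODE. The scripts were tested on simulated counts, and 28 genes whose names read as dates were tested and not named. Python 3.11.15, pandas 2.3.3 and matplotlib 3.10.9 were used.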

Additional observations from a re-analysis of the deposited data

Results flagged for a closer look

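In 2 of 20 control groups 1 library stood apart from the other 3, where chance alone sets apart about 1 in 20 groups. Both were in dCas9-KRAB control and both concerned nontarget Sp replicate 1. For REL it held 26.8 CPM against 19.7 to 20.8 CPM in the other 3, a gap of 0.843 of the range. For RELB it held 5.99 CPM against 8.15 to 8.43 CPM, a gap of 0.884 of the range. Without this library neither gene passed the threshold with dCas9-KRAB, as with it.

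The response to recruitment differed between the fusions for 3 of the 9 members other than NFKB2, by the test of the difference itself. Over all 16673 genes tested, 21.0% passed the same test. The log2 fold change with dCas9-VPR minus that with dCas9-KRAB was 2.14 for NFKBIE. It was −0.98 for RELB and −0.69 for NFKB1. The calls of RELB and NFKB1 depended on single libraries, and that of RELB also on the expression filter, as given above.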

How the results depend on the processing

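NFKBIE with dCas9-VPR kept its direction and stayed past the threshold under every alternative, with log2 fold changes of 1.25 to 1.65. No log2 fold change of a member, of a named pathway gene or of a named neighbour of NFKB2 that was called, in the reported fit or under an alternative, changed its sign. RELA with dCas9-VPR passed under 6 of 14 alternatives, RELB with dCas9-VPR under 10 of 14 and NFKBIE with dCas9-KRAB under 3 of 14, not counting the threshold of 0.01. The replicate block changed the calls of RELA with dCas9-VPR, NFKBIE with dCas9-KRAB, and NFKB2 and BCL3 between the dCas9-VPR control arrays. In the comparison of the fusions' controls, where equal numbers were not taken as pairs, it brought NFKBIE to a log2 fold change of 0.32 with an adjusted p of 0.0485 (edgeR; 0.0751 without). It changed no other call of a member.

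With DESeq2, 716 genes passed with dCas9-KRAB instead of 430, 2 members other than NFKB2 instead of 0 (3 with it) and 4 pathway genes instead of 0; the cause was not tested. The threshold of 0.01 left 2517 genes with dCas9-VPR and 236 with dCas9-KRAB, 7 pathway genes and 4 neighbours of NFKB2 with dCas9-VPR, and, besides NFKB2, 1 member with dCas9-VPR instead of 2 and 1 with a difference between fusions instead of 3 (2 with NFKB2). The replicate block gave 1 member other than NFKB2 with dCas9-KRAB (2 with it) and 2 between the dCas9-VPR control arrays. LTR5HS Sa alone as control gave 17 pathway genes with dCas9-VPR and 1 with dCas9-KRAB, nontarget Sp alone gave 2 with dCas9-KRAB and left 1 member other than NFKB2 with dCas9-VPR, and all 12 libraries in 1 fit gave 1. When libraries were left out one at a time, the genes changed ranged from 2299 to 4626 with dCas9-VPR and from 214 to 441 with dCas9-KRAB, lowest without a recruitment library. Without dCas9-KRAB nontarget Sp replicate 2, which had the most counts, 285 genes passed. Members other than NFKB2 changed ranged from 1 to 3 with dCas9-VPR and from 0 to 1 with dCas9-KRAB (1 to 2 with NFKB2), the higher of the latter without nontarget Sp replicate 1, and those with a difference between fusions from 1 to 3 (2 to 4 with NFKB2). Pathway genes changed ranged from 7 to 13 with dCas9-VPR and from 0 to 1 with dCas9-KRAB. Neighbours of NFKB2 ranged from 4 to 8 with dCas9-VPR and from 1 to 3 with dCas9-KRAB.

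With 2 recruitment libraries per fusion from 1 line each, the spread measured is that of replicates of a line. Removing 1 of them leaves a single recruitment library, assumed to vary like the controls. Low genes such as TLR4, VCAM1, PITX3 and C10orf95 rest on few counts. Strand, protein levels and processing of p100 were not analysed here.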
